A study of Rattus norvegicus with 12 samples.

Results

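Cytosolic ribosomal protein genes were followed in renal cortex of rat kidney grafts that carried or lacked MRP2, the apical export pump encoded by Abcc2. Genes were taken by the symbol that the array annotation gives a probe set: Rpl or Rps followed by a digit, or Rplp0, Rplp1, Rplp2 and Rpsa. Symbols of S6 kinases, pseudogenes and like paralogs were left out, as were probe sets with more than 1 symbol. Where a gene had several probe sets, the one with the highest mean over 12 arrays stood for it. The rule found 43 genes among 14217 genes with a symbol of their own, 29 for the large subunit and 14 for the small subunit. They were read by 49 probe sets. Another 33 probe sets listed several symbols with a ribosomal protein among them, and 27 ribosomal protein symbols were found only there. Those genes, Rplp1 and Rps19 among them, carry no value here.

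All grafts were male and sat in wild-type recipients. The design sets 6 wild-type kidneys against 6 MRP2-deficient kidneys, labelled ABCC2-/-, with 1 array of cortical RNA for each graft. The labels do not say whether grafts came from separate donors, so p-values measure the spread between these samples, which may be technical. Strain, age and time after transplantation are not given in the sources used here. Values are signals on a linear scale, and log2 differences are given as deficient minus wild type. A signal belongs to 1 probe set, so levels are not compared between genes.

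Cytosolic ribosomal proteins and ribosomal RNA make up the particle that translates nuclear messages. Their transcripts are short, abundant and made in nearly every cell, and most begin with a run of C and T bases, the terminal oligopyrimidine tract, through which the mTOR pathway controls their translation. Kidney cortex is dominated by proximal tubule cells, whose transport work depends on steady protein synthesis. Ribosomal protein genes have many processed copies in mammalian genomes, and a probe set can read a close copy.

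To show what the members share in sequence, RefSeq starts of the GRCr8 build were searched for that tract, and 38 of 43 members had an entry. The windows below run from 10 bases before to 20 bases after the annotated start, 5′ to 3′ on the gene's strand. Capitals mark the longest C and T run that touches the 5 bases on either side of the start, as far as it lies within the window. These 8 genes are shown because the results below turn on them.
Rpl14, chr8:129163610-129163639, plus strand: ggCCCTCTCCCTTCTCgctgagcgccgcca
Rps24, chr16:96507-96536, plus strand: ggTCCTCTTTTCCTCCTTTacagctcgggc
Rplp0, chr12:46718371-46718400, minus strand: caccgcaCTTCTCTCgccaggcgtcctcat
Rpl12, chr3:36661930-36661959, plus strand: aacatccgTCTTTTCggctttcggttcgga
Rpl4, chr8:73566467-73566496, plus strand: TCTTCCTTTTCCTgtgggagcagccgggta
Rps4y2, chr4:183000903-183000932, plus strand: cagCTCTCCTCactcgcttgtgctctggga
Rpsa, chr8:128728869-128728898, plus strand: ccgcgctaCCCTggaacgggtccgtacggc
Rpl39, chrX:121195877-121195906, minus strand: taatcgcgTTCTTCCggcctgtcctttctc

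The run covered 17 bases in Rps24, 14 in Rpl14 and Rpl4, 8 in Rplp0 and Rps4y2, 7 in Rpl12 and Rpl39, and 4 in Rpsa. A run of at least 6 bases that touched the 5 bases on either side of the start was found in 26 of 38 members (68.4%) and in 18.7% of 33465 rat promoters. At least 8 bases were found in 22 members (57.9%) and 8.67% of promoters. The median run was 9.00 bases in members and 3.00 in all promoters. From 250 bases before to 50 bases after the start, on both strands, CTTTCC occurred in 47.4% of members and 26.4% of promoters. CCGGAAG occurred in 21.1% of members and 8.74% of promoters, and AAGATGG in 21.1% and 7.01%. None of these motifs overlapped another of them in a member, but their overlap with the C and T run was not counted. CTTTCC holds only C and T and lies within the run in some members, such as Rpl19 and Rpl35a. Its share is therefore not separate from that of the run. These letters were matched, and no binding or start site was measured.

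Abcc2 itself matched the labels. Its signal lay between 0.787 and 0.987 in wild-type grafts and between 0.0387 and 0.213 in deficient grafts, a log2 difference of -2.69 (limma, adjusted p = 8.35e-06). All 6 proximal tubule markers were above the filter for dim probe sets, with a summed signal of 200.0 to 265 in wild-type and 197 to 225 in deficient grafts. Of the distal tubule markers, Pvalb was at the floor on all arrays. Summed signals of every marker list overlapped between genotypes: 3.45 to 4.40 against 3.95 to 4.67 for macrophages, 1.16 to 1.44 against 0.899 to 1.64 for T cells, and 8.46 to 11.8 against 8.43 to 11.3 for cycling cells. Their part in the values below was not tested.

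Arrays stood apart in 2 ways. In the deposited order each genotype has a first-listed and a last-listed set of 3 grafts, wild-type replicates 1, 6, 9 and 4, 7, 8, and deficient replicates 5, 9, 11 and 3, 10, 14. The labels do not say what separates these sets. The last-listed deficient arrays had a Gapdh 3′ to 5′ signal ratio of 1.28 to 1.36, against 1.64 to 1.93 on the other arrays, where a higher ratio means less signal from the far end of the message. Their beta-actin ratio was 4.48 to 6.39, against 7.06 to 9.79. Separately, 12 of 12 bacterial poly-A control probe sets were higher on every deficient array than on every wild-type array, 4.27 to 8.72 times. With genotype and control level split the same way, the 2 cannot be told apart.

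No ribosomal protein gene passed the test between genotypes. Of 43 genes, 40 passed the filter on dim probe sets, 27 of the large and 13 of the small subunit. At an adjusted p under 0.05, 0 of 40 were higher and 0 were lower (limma). Over all 18625 tested probe sets 0% were called higher and 0.0215% lower. At an unadjusted p under 0.05, 1 member was higher, Rps4y2, and 0 were lower, where 3.35% and 4.63% of all probe sets were. No member separated the genotypes without overlap, as 0.435% of all probe sets did. In these bulk samples fewer cells of a type and less RNA per cell cannot be told apart.

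Small positive differences were shared by nearly all members. The log2 difference was above 0 in 39 of 40 members, against 45.4% of all tested probe sets. Members moved together across arrays (median Pearson correlation 0.88), so such counts are not 40 separate observations. The median was 0.13 for members (0.13 for each subunit) and -0.023 for all tested probe sets. The 95% confidence interval included 0 for 39 of 40. The count above 0 was 36 with arrays centred on their median and 30 after quantile normalization. With the Gapdh ratio in the fit it was 11, with a median of -0.015, and with both the Gapdh ratio and the listed set in the fit it was 38, with a median of 0.10. In first-listed grafts alone, which leave out deficient replicates 3, 10 and 14 and the wild-type grafts listed with them, it was 33, with a median of 0.054.

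Members differed between the listed sets, described below, so the fit without that factor has wide intervals for them. With the listed set as a block, 26 of 40 members were higher in deficient grafts at an unadjusted p under 0.05 and 0 were lower, where 7.4% of all probe sets were higher. The confidence interval then included 0 for 14 of 40. Here too members moved together, so these counts are not of 40 separate observations. After adjustment 0 of 40 were called, where 0.204% of all probe sets were called higher. Rpl14 came closest, with 0.21 (SE 0.053, unadjusted p = 0.00102, adjusted p = 0.0686, limma). Rps3a had 0.16 (adjusted p = 0.0979) and Rpl12 0.17 (adjusted p = 0.111). With the Gapdh ratio beside the block, 7 members were higher at an unadjusted p under 0.05, where 2.27% of all probe sets were, and 0 were called after adjustment.

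**Figure D1:**
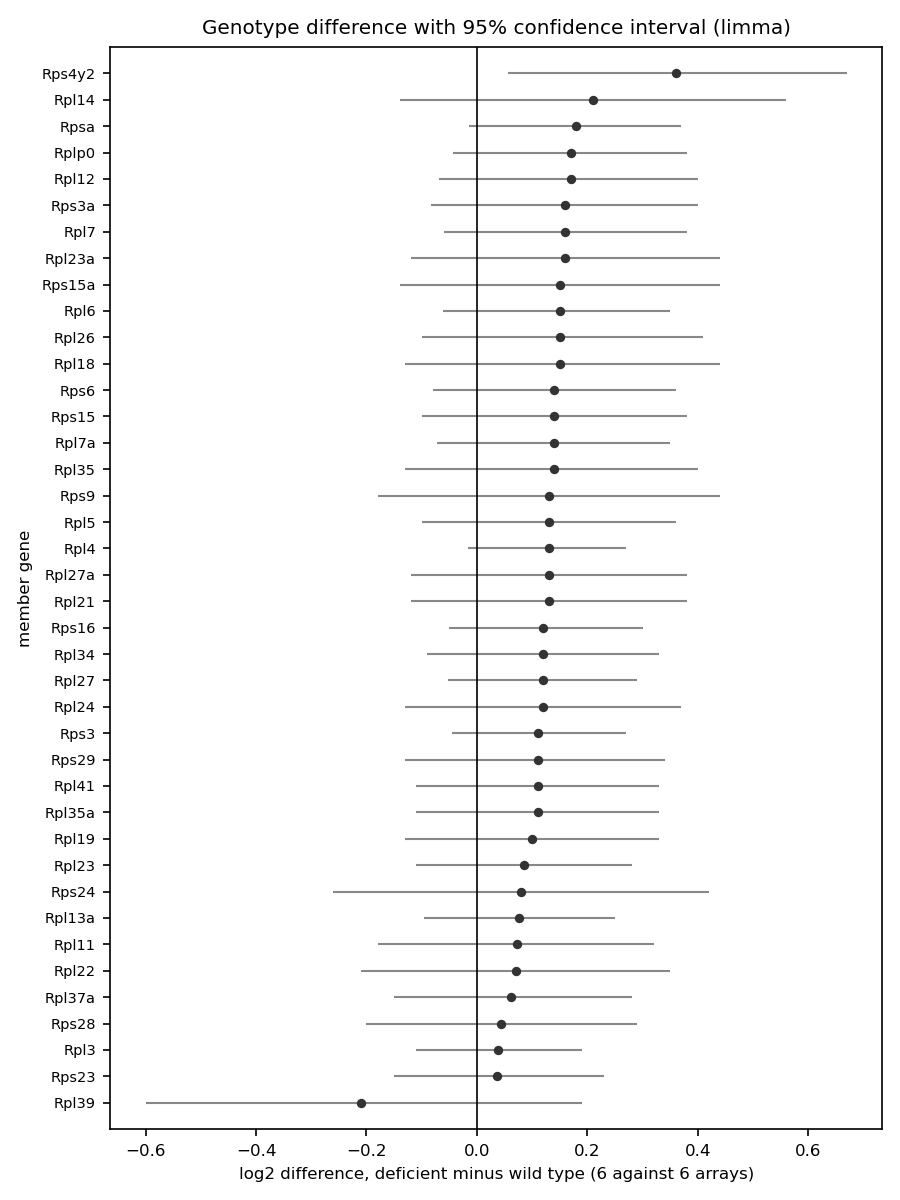
Log2 difference, deficient minus wild type, for each of 40 ribosomal protein genes (points), with its 95% confidence interval from limma (lines), over 6 and 6 arrays. The points run from -0.21 for Rpl39 to 0.36 for Rps4y2, and the interval of 39 of 40 genes includes 0.

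Rplp0 is the scaffold of the stalk that recruits elongation factors to the large subunit. Its signal was 26.2 at the lowest, 30.0 at the median and 33.5 at the highest in wild-type grafts, and 27.3, 34.6 and 39.9 in deficient grafts. Deficient replicates 3, 10 and 14 lay above every wild-type array, and the other 3 lay within the wild-type range. The log2 difference was 0.17 (SE 0.10, adjusted p = 0.635). Rpl12 sits at the base of that stalk. Its signals were 28.6, 31.2 and 34.5 in wild-type and 28.5, 35.8 and 42.7 in deficient grafts, with the same 3 deficient arrays above all wild-type arrays. The log2 difference was 0.17 (95% confidence interval -0.068 to 0.40, adjusted p = 0.639).

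Rpsa, a small-subunit protein also known as the laminin receptor precursor, had 3 probe sets. The brightest gave 25.2, 26.3 and 28.7 in wild-type grafts and 25.8, 29.9 and 36.3 in deficient grafts. Again 3 deficient arrays lay above the wild-type range, and the log2 difference was 0.18 (95% confidence interval -0.014 to 0.37, adjusted p = 0.628). The other 2 probe sets gave smaller log2 differences, 0.043 and 0.064. Rps3, at the messenger entry channel, had signals of 24.0, 25.7 and 27.5 in wild-type and 24.2, 28.2 and 29.8 in deficient grafts. There 4 deficient arrays lay above all wild-type arrays, and the log2 difference was 0.11 (SE 0.074, adjusted p = 0.641).

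Rps6 is the substrate of the S6 kinases. It gave 32.2, 37.0 and 40.1 in wild-type and 32.9, 41.5 and 47.4 in deficient grafts, a log2 difference of 0.14 (adjusted p = 0.662). Rps24, whose human counterpart is mutated in Diamond-Blackfan anaemia, gave 29.5, 39.1 and 49.5 against 30.3, 41.6 and 51.0, and the genotypes covered nearly the same range. Its log2 difference was 0.08 (95% confidence interval -0.26 to 0.42, adjusted p = 0.863). A second, much dimmer Rps24 probe set went the other way, from 0.500, 0.597 and 0.670 in wild-type to 0.417, 0.431 and 0.518 in deficient grafts. That difference of -0.36 had an unadjusted p of 0.00791 and an adjusted p of 0.606 in limma, and the probe set was singled out after its values were seen.

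Rps4y2, annotated as a paralog of the small-subunit protein S4, had the lowest p among members. Its signals were low, at 0.562, 0.697 and 0.984 in wild-type and 0.791, 0.913 and 1.20 in deficient grafts. Deficient replicates 3 and 9 lay above every wild-type array, and the groups overlapped. The log2 difference was 0.36 (SE 0.14, 95% confidence interval 0.057 to 0.67, 1.29-fold), with an unadjusted p of 0.0228 and an adjusted p of 0.610. Its difference was 0.42 in the first and 0.30 in the last listed set, where 33 and 39 of 40 members were above 0.

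Rpl3 and Rpl4 reach into the peptidyl transferase centre and the exit tunnel. Rpl4 signals were 18.0, 19.7 and 19.9 in wild-type and 19.5, 21.4 and 23.2 in deficient grafts. Deficient replicates 3, 9, 10 and 11 lay above all wild-type arrays, so here the high arrays came from both listed sets. The log2 difference of 0.13 (SE 0.068, adjusted p = 0.628) did not pass. Rpl3 gave 35.3, 38.2 and 38.7 against 34.8, 38.8 and 42.5, a log2 difference of 0.038 (adjusted p = 0.852) that was -0.018 with arrays centred on their median and -0.047 after quantile normalization.

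Rpl39, a short protein at the end of the exit tunnel, was the 1 member with a negative difference. Its probe set was dim, like that of Rps4y2, at 0.544, 0.890 and 1.17 in wild-type and 0.601, 0.684 and 0.903 in deficient grafts. These low signals belong to the probe set at hand and give no level of the gene. The highest arrays were wild-type replicates 4 and 1 and the groups overlapped. The log2 difference was -0.21 (SE 0.19, 95% confidence interval -0.60 to 0.19, adjusted p = 0.707). Rpl39 also had the largest within-genotype SD of all members, 0.366 on the log2 scale.

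Rpl5 and Rpl11 form a complex with 5S ribosomal RNA that can bind Mdm2, the p53 ligase. Rpl5 gave 41.2, 44.5 and 58.3 in wild-type and 41.2, 50.9 and 59.7 in deficient grafts, a log2 difference of 0.13 (adjusted p = 0.690). Rpl11 gave 32.2, 39.6 and 46.2 against 34.5, 41.8 and 49.9, a log2 difference of 0.073 (adjusted p = 0.829). Both genes overlapped widely between genotypes. The array's 5S ribosomal RNA control probe set was 0.635 to 0.670 on deficient replicates 3, 10 and 14 and 0.779 to 1.35 on the other arrays. On those 3 deficient arrays Rpl11 was at its highest, 47.8 to 49.9, as were many other members. Rpl5 had 57.6, 56.0 and 59.7 there, and 58.3 on wild-type replicate 4. Whether the RNA control bears on either gene was not tested.

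The remaining named members of the large subunit also overlapped between genotypes. Rpl7 had a log2 difference of 0.16 (adjusted p = 0.639) and Rpl14 one of 0.21 (adjusted p = 0.677). Rpl13a, which also serves in an interferon-activated silencing complex, had 0.076 (adjusted p = 0.743). Rpl22, an RNA-binding protein needed in T cell development, had 0.071 (adjusted p = 0.855), and Rpl41, the shortest of the family, had 0.11 (adjusted p = 0.723). The other 23 tested members had log2 differences of 0.037 (Rps23) to 0.16 (Rps3a and Rpl23a).

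**Figure D2:**
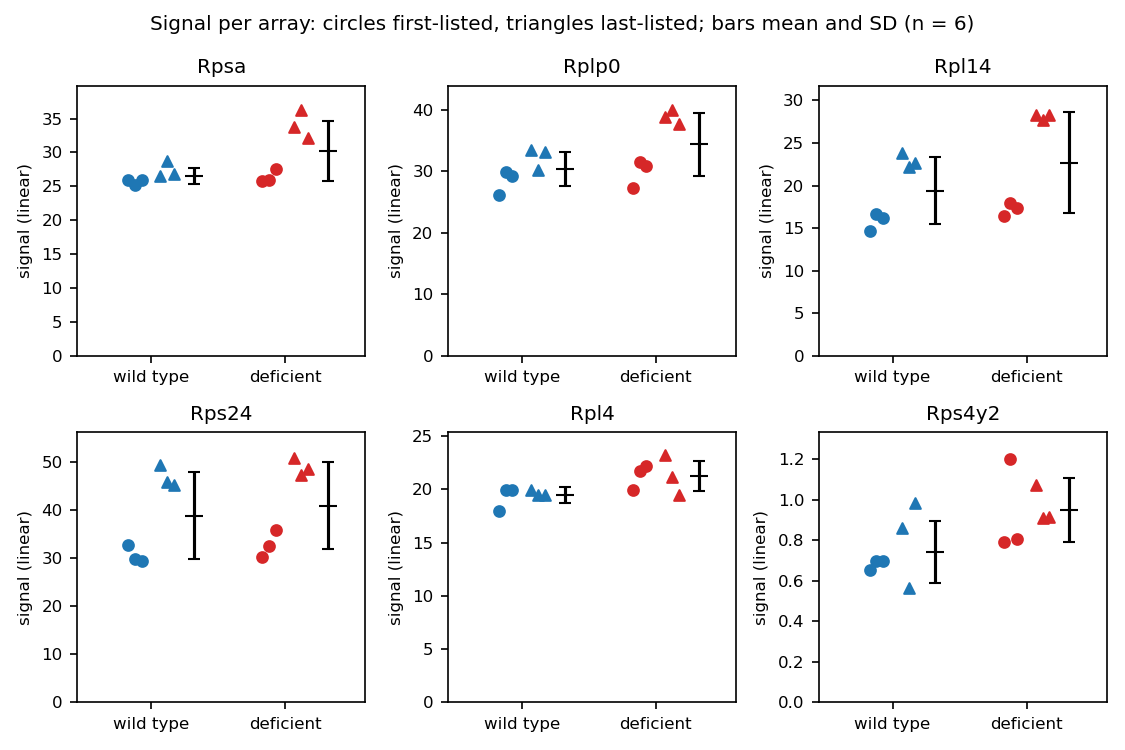
Signal per array on a linear scale for 6 members (1 panel each), by genotype, with first-listed grafts as circles, last-listed grafts as triangles, and bars for the mean and SD over 6 arrays. In Rpl14 and Rps24 the triangles lie above all circles in both genotypes, whereas in Rpl4 and Rps4y2 circles and triangles mix.

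Rpl28, Rpl30 and Rps13 did not pass the filter and were not tested. Their single-symbol probe sets stayed at or below 0.130, 0.180 and 0.239 in every wild-type graft and 0.163, 0.200 and 0.248 in every deficient graft, where the floor set for all values was 0.0694. These low signals belong to the probe sets at hand and give no level of the gene.

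Members differed more between the listed sets than between genotypes. With genotype in the fit, 34 of 40 members were called higher in last-listed grafts and 0 lower, where 11.3% of all probe sets were called higher and 19% lower. In 28 members every last-listed array lay above every first-listed array, which held for 4.93% of all probe sets. All 40 differences were above 0, with a median log2 difference of 0.32 for members and -0.062 for all tested probe sets. Since each set holds 3 grafts of each genotype, this difference is not one of genotype. With the Gapdh ratio also in the fit, 27 members were called higher, against 4.54% of all probe sets.

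Rpl14 had the largest such difference. Its signal was 14.7 to 16.7 in first-listed wild-type, 16.4 to 18.0 in first-listed deficient, 22.2 to 23.8 in last-listed wild-type and 27.7 to 28.3 in last-listed deficient grafts. The log2 difference between sets was 0.62 (95% confidence interval 0.51 to 0.73, adjusted p = 7.66e-06). Rps24 followed with 29.5 to 36.0 in the 6 first-listed and 45.4 to 51.0 in the 6 last-listed grafts, a log2 difference of 0.59 (adjusted p = 8.32e-06). On these probe sets of both genes every last-listed array lay above every first-listed array. The second, dimmer Rps24 probe set differed by -0.10 between sets (adjusted p = 0.573, limma), and its sets overlapped.

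Rpl22 rose from 29.8 to 32.4 in first-listed grafts to 40.3 to 47.3 in last-listed grafts, a log2 difference of 0.48 (adjusted p = 1.43e-05). Rpl11 differed by 0.39 (adjusted p = 8.09e-05), Rpl12 by 0.36 (adjusted p = 1.27e-04), Rpl5 by 0.34 (adjusted p = 3.55e-04) and Rps6 by 0.32 (adjusted p = 3.97e-04). None of these genes overlapped between sets. The stalk gene Rplp0 differed by 0.28 (adjusted p = 0.00206) with overlapping sets, since its first-listed arrays reached 31.5 and its last-listed arrays began at 30.2.

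The 6 members not called between the sets were Rpl3, Rpl4, Rpl13a, Rpl39, Rps3 and Rps4y2. Rpl4 differed by 0.015 (SE 0.053, adjusted p = 0.863), Rpl13a by 0.049 (adjusted p = 0.625) and Rps3 by 0.094 (adjusted p = 0.220). Rpl39 differed by 0.32 (SE 0.17, adjusted p = 0.156), as far as the median member, but with a wide spread. Probe sets of one gene could also part. For Rpsa the brightest probe set differed by 0.23 (adjusted p = 0.00717), and the other 2 by 0.035 (adjusted p = 0.621) and 0.012 (adjusted p = 0.902). The 3 Rpsa probe sets were compared after their values were seen.

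**Figure D3:**
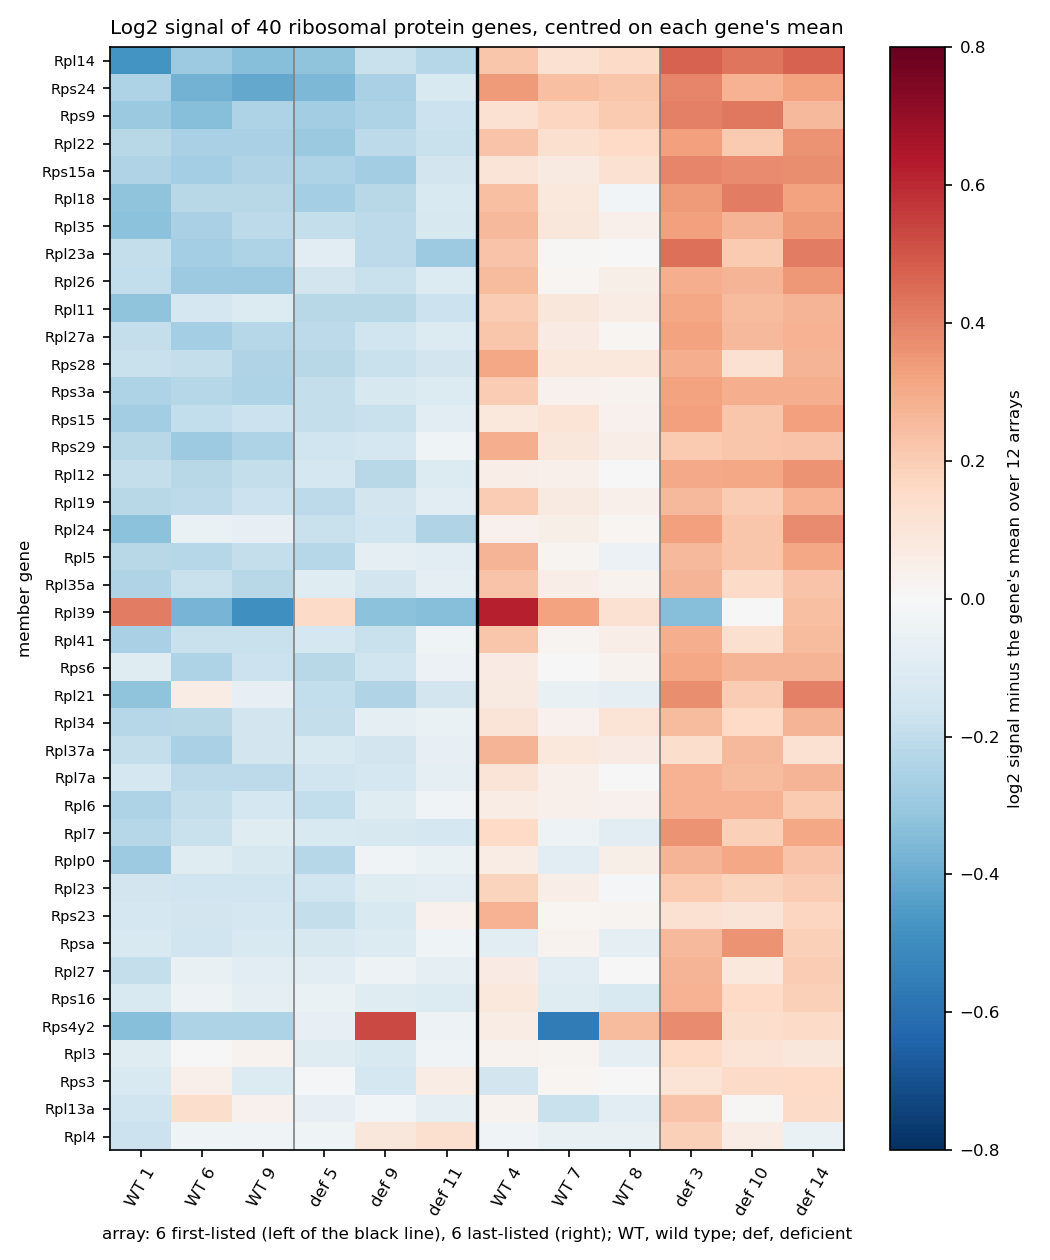
Log2 signal of 40 members (rows, ordered by the difference between listed sets) on 12 arrays (columns), each gene centred on its own mean over the arrays. Most rows are below their mean in the 6 first-listed grafts left of the black line and above it in deficient replicates 3, 10 and 14 at the right. Rpl39 and Rpl4 do not follow, and Rps4y2 departs on deficient replicate 9, at 0.53 above its mean.

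Members rose and fell together across arrays. The mean centred log2 signal of 40 members was -0.21, -0.18 and -0.18 in first-listed wild-type grafts and -0.16, -0.14 and -0.10 in first-listed deficient grafts. It was 0.16, 0.029 and 0.034 in last-listed wild-type grafts, and 0.27, 0.22 and 0.26 in last-listed deficient grafts. All 6 last-listed arrays lay above all 6 first-listed arrays. The median Pearson correlation between 2 members over 12 arrays was 0.88, against 0.055 between any 2 genes, and these points share the array, its scale and its RNA. With the means of genotype and listed set removed the median was 0.37 for members and 0.056 for all genes.

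Against the mean of the other members, Rps3a had the highest correlation over 12 arrays, 1.00 after rounding. The lowest were 0.23 for Rpl39, 0.33 for Rpl4, 0.39 for Rps4y2, 0.47 for Rpl13a and 0.57 for Rps3. These are among the members not called between the sets, and the probe sets of Rpl39 and Rps4y2 were dim. The within-genotype SD of members had a median of 0.209, near the 0.219 of all genes. It was smallest in Rpl4 (0.0770), Rpl3 (0.0943) and Rps3 (0.101), and largest in Rpl39 (0.366), Rpl14 (0.346) and Rps24 (0.334).

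**Figure D4:**
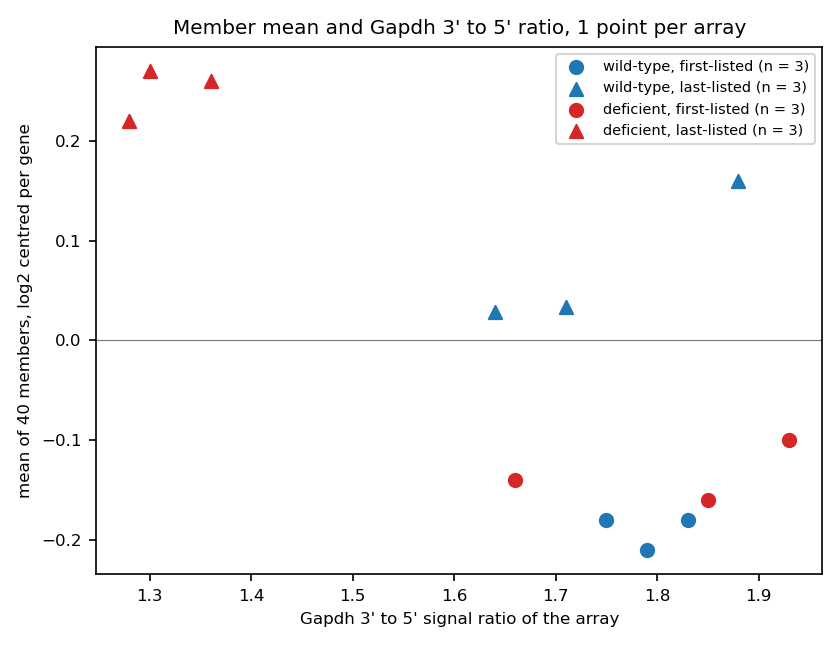
Mean centred log2 signal of 40 members (vertical axis) against the Gapdh 3′ to 5′ signal ratio (horizontal axis), 1 point per array, coloured by genotype and shaped by listed set. Deficient replicates 3, 10 and 14 sit at ratios of 1.28 to 1.36 and means of 0.22 to 0.27, and the last-listed wild-type grafts lie above the first-listed ones at ratios that overlap theirs.

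Taken over all 12 arrays, members were lower where the Gapdh ratio was higher. With genotype in the fit, the slope of log2 signal on the log2 ratio was below 0 in all 40 members and called in 19, where 7.03% of all probe sets were called lower. The slope was -1.38 for Rpl14 (adjusted p = 0.0144), -0.88 for Rpl12 (adjusted p = 0.0187) and -0.71 for Rpsa (adjusted p = 0.0180). It was -0.023 for Rpl4 (adjusted p = 0.947) and -0.17 for Rpl39 (adjusted p = 0.861). The listed set was not in this fit. The lowest ratios and the last-listed deficient grafts coincide, so their parts cannot be told apart there. Within no listed set of a genotype did the members' mean fall steadily as the ratio rose. Each of these sets holds only 3 arrays, and no slope was tested within them. In last-listed wild-type grafts, ratios of 1.64, 1.71 and 1.88 went with means of 0.029, 0.034 and 0.16. Among wild-type grafts the ratio was 1.75 to 1.83 in the first-listed and 1.64 to 1.88 in the last-listed set. The members' mean differed between these wild-type sets without overlap. Whether the ratio has a part in that difference among wild-type grafts was not tested.

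A hybridization control probe set for bacteriophage cre, added to the mix and not made by the kidney, was 61.1 to 73.9 on first-listed and 73.0 to 107 on last-listed arrays. Its part in the difference between sets was not tested. Between the sets 30.3% of all probe sets were called in either direction. So were 4 of 6 tested proximal tubule, 1 of 2 loop of Henle, 1 of 1 distal tubule and 0 of 3 collecting duct markers. For podocyte it was 1 of 2, endothelium 1 of 3, macrophage 1 of 4 and cycling cells 1 of 5. For T cells it was 0 of 4, B and plasma cells 0 of 1 and erythrocytes 0 of 2. Summed signals of every list overlapped between the sets, at 197 to 216 against 207 to 265 for proximal tubule.

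Genotype was then compared within each set of 3 against 3 grafts. In first-listed grafts 0 of 40 members were called, as were 0% of probe sets in the higher direction, 33 differences were above 0 and their median was 0.054. In last-listed grafts 6 members were called higher, where 3.68% of all probe sets were, 39 differences were above 0 and the median was 0.19. The called members were Rpl12, Rpl14, Rpl21, Rpl24, Rps15a and Rpsa. The difference between the sets was tested as the interaction of genotype and set, and 0 of 40 members were called, against 1.87% of all probe sets. At an unadjusted p under 0.05, 10 members had a higher difference in the last-listed set, against 11.7% of all probe sets. A genotype difference that differs between sets was therefore not shown for any member.

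Rpl21, a large-subunit protein, had the lowest interaction p. It was 18.5 to 24.1 in first-listed wild-type and 19.6 to 20.9 in first-listed deficient grafts. In last-listed grafts it was 22.0 to 24.3 in wild-type and 26.6 to 30.7 in deficient grafts, which did not overlap. The genotype difference was -0.086 in the first and 0.34 in the last set (adjusted p = 0.0309 in the last), and the interaction of 0.43 had an adjusted p of 0.0808. For Rpsa the last-listed wild-type grafts had 26.6 to 28.7 and the deficient grafts 32.1 to 36.3, a difference of 0.31 (adjusted p = 0.0357), with an interaction of 0.27 (adjusted p = 0.121). Rps15a differed by 0.29 in that set (adjusted p = 0.0329), and Rpl24 by 0.28 (adjusted p = 0.0464). Rpl12 differed by 0.29 (adjusted p = 0.0327) and Rpl14 by 0.30 (adjusted p = 0.0318). These 6 calls came from the 3 deficient arrays with the lowest Gapdh ratios.

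**Figure D5:**
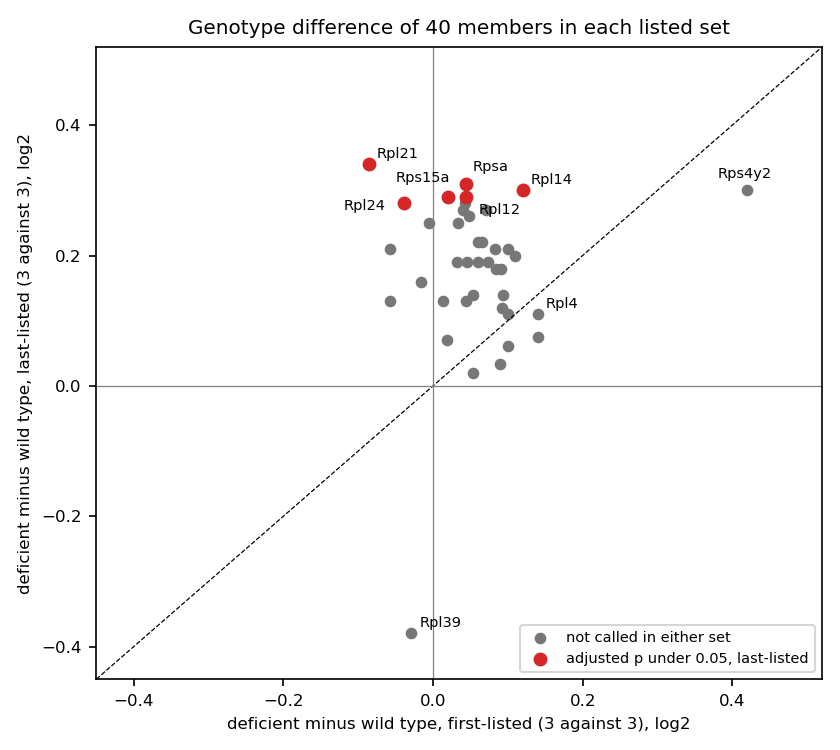
Genotype difference in log2, deficient minus wild type, in the last-listed grafts (vertical axis, 3 against 3) against that in the first-listed grafts (horizontal axis, 3 against 3), 1 point per member. Red points are the 6 members called in the last-listed set, the dashed line marks equal differences, and most points lie above it, with Rpl39 at -0.38 in the last-listed set.

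Members with and without a long tract at the start had similar differences. Among tested members with an entry, the 24 with a run of at least 6 bases had a median difference between listed sets of 0.34, with 20 called higher. The 12 with a shorter run had a median of 0.31, with 10 called higher, where 11.3% of all probe sets were. Rps24 and Rpl4 both carry long runs and differed between sets by 0.59 and 0.015. For genotype the medians were 0.12 and 0.14. These groups were described and not tested against each other.

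Other genes of the translation machinery were read from lists of genes. Of 35 tested elongation and initiation factors 0 were called by genotype, 16 differences were above 0 and the median was -0.034. The lowest p were those of Eif3c, a subunit of the initiation factor that binds the small subunit (-0.14, adjusted p = 0.625), and Eif4g1, the cap-complex scaffold (-0.23, adjusted p = 0.628). Rack1, which sits on the small subunit but falls outside the symbol rule, had -0.049 (adjusted p = 0.785). Between listed sets 7 factors were called higher and 10 lower, where 11.3% and 19% of all probe sets were.

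Of 14 tested genes with a known terminal oligopyrimidine tract that are not ribosomal proteins, 0 were called by genotype, with 7 differences above 0 and a median of -0.0026. Ubap2l (-0.23, adjusted p = 0.624) and Nap1l1, a histone chaperone (-0.17, adjusted p = 0.639), had the lowest p. Between listed sets 3 were called higher and 3 lower, where 11.3% and 19% of all probe sets were. Of 55 ribosome biogenesis genes 0 were called, with 30 above 0 and a median of 0.027. Rrp1b, a nucleolar protein, had -0.26 (adjusted p = 0.612) and Polr1c, a subunit shared by the polymerases of ribosomal and transfer RNA, had 0.18 (adjusted p = 0.619). Between sets 7 were called higher and 6 lower, beside the same shares of all probe sets.

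Mitochondrial ribosomal proteins, which build the separate ribosome inside mitochondria, also had mostly positive differences. Of 70 tested 0 were called by genotype, 59 differences were above 0 and the median was 0.092. With the Gapdh ratio in the fit the median was -0.015. Between listed sets 40 were called higher and 6 lower, where 11.3% and 19% of all probe sets were, and the median was 0.22. Mrpl17 was 12.8 to 13.7 in wild-type and 13.0 to 19.6 in deficient grafts (0.21, adjusted p = 0.614), and Mrps28 was 2.34 to 2.94 and 2.57 to 4.15 (0.21, adjusted p = 0.637). In both genes the 3 last-listed deficient arrays lay above all wild-type arrays.

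Of 5 like paralogs 3 were tested and 0 called. Rpl26l1, a paralog of Rpl26, had -0.27 (adjusted p = 0.628), and Rps27l, a p53-induced paralog of Rps27, had 0.15 (adjusted p = 0.734). Of 17 genes of growth control over translation, 4 differences were above 0, the median was -0.059 and 1 gene was called. Mxi1, a Max partner that antagonises Myc, was 7.01 to 8.83 in wild-type and 3.62 to 5.48 in deficient grafts. Its groups did not overlap, as held for 0.435% of all probe sets. Mxi1 fell by 0.94 on the log2 scale (limma, adjusted p = 0.00146), where 0.0215% of all probe sets were called lower.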

How the data were processed

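Total RNA of renal cortex was labelled with biotin and hybridized to Affymetrix 3′ expression arrays, per the labels' protocols. The deposited intensity of each probe set is linear, with 1 column for each graft. The submitters' processing notes list MAS5 and GCOS and no version. Other steps and the probes' build are not given in the sources used here. Of 31099 probe sets, 57 controls were left out. Values under the pooled 20th percentile, 0.0694, were raised to it before log2, which understates differences of dim genes. The 18625 probe sets whose mean log2 reached the 40th percentile were tested with limma 3.58.1 in R 4.3.3 (lmFit, eBayes with trend, genotype as the factor, Benjamini-Hochberg over all, threshold 0.05). The fit was run on simulated arrays with independent noise for each probe set and no difference between listed sets. It therefore says nothing of how such a difference affects the calls. Array number limits the precision. Differences between listed sets, the interaction and the Gapdh slope were fitted on all 12 arrays with genotype in the model. Within-set fits used 3 against 3 arrays.

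Named were members past the threshold or with the 6 lowest p in each direction, the 3 largest and 3 smallest within-genotype SDs, the stalk genes and Rpsa, members with known second roles, and from each related list genes past the threshold or the 2 with the lowest p. Other members named beside the listed sets or in single windows were picked after their values were seen. The members and lists were chosen with earlier results of these data known. Starts and windows are RefSeq's, build GRCr8; 36 of the matches were made by gene ID and 2 by symbol. Floors, filters, normalizations, variance models, covariates, probe set choices and left-out arrays were tried as alternatives.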

Additional observations from a re-analysis of the deposited data

Results flagged for a closer look

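Among 62 groups of 6 arrays, 3 held an array far from the others by Dixon's criterion, which chance flags in about 1 of 20 groups. For Rpl4, wild-type replicate 1 had a signal of 18.0, and the nearest wild-type array had 19.5. For Rps27l, wild-type replicate 8 had 1.62, and the nearest had 1.24. For Mxi1, wild-type replicate 7 had 7.01, and the nearest had 8.15, while all deficient arrays were lower still.

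The Bacillus subtilis poly-A control transcripts, which are added to RNA and were outside every comparison, had a median fold of 6.68 of deficient over wild-type arrays. All 12 control probe sets separated the genotypes without overlap, and for the dap 3′ probe set the range was 0.936 to 2.04 on wild-type and 7.45 to 10.2 on deficient arrays. Their level splits by genotype. Among deficient grafts the dap 3′ probe set was 9.06 to 10.2 in the first-listed and 7.45 to 9.07 in the last-listed set. Whether the amount added bears on any member was not tested.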

How the results depend on the processing

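By genotype 6 members were called in the last-listed grafts alone and 0 under each other alternative run. The count of all probe sets called, 4, became 2 with values below 1 raised to 1, 2 with the filter at the 60th percentile, 112 with the listed set as a block and 1190 in the last-listed grafts alone. Leaving out 1 graft at a time gave 3 to 5 called probe sets, 0 called members and a members' median of 0.08 to 0.18. The median, 0.13, was 0.054 in first-listed grafts alone. It was -0.071 on 9 arrays without deficient replicates 3, 10 and 14, an alternative chosen after seeing the data that sets first-listed deficient grafts against wild-type grafts of both listed sets, so it holds part of the difference between sets and says nothing of the sign for genotype. Adding probe sets with several symbols, also chosen then, gave 73 features, 0 calls and a median of 0.13.

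Signs of uncalled genes turned under some settings. With the Gapdh ratio as a covariate the differences were -0.0029 for Rpl12, -0.03 for Rpl3, -0.13 for Rps24, -0.057 for Rpl14, -0.0091 for Rps6, -0.0022 for Rpl5, -0.10 for Rpl11, -0.12 for Rpl22, -0.0027 for Rpl41, -0.0014 for Mrps28 and -0.026 for Rps27l. After quantile normalization they were -0.047 for Rpl3, -0.0011 for Rps24, -0.028 for Rpl11 and -0.0027 for Rpl22. Rpl3 had -0.018 with arrays centred on their median and -0.012 with the set block and Gapdh ratio together. In first-listed grafts alone they were -0.057 for Rpl3, -0.016 for Rpl11, -0.057 for Rpl13a, 0.038 for Eif4g1, 0.00032 for Ubap2l, 0.001 for Nap1l1 and -0.071 for Rps27l. The causes were not tested beyond the values given. Dim probe sets near the floor have understated differences. No paired analysis was possible because the genotypes share only replicate number 9.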
